A study of Mus musculus with 24 samples.

Results

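Of 56884 genes counted in these macrophages, 10 were chosen by measured values: their RNA was higher after interleukin-4 (IL-4) and interleukin-13 (IL-13) than in unstimulated cells, higher again when the same cytokines were given with oligomycin, and kept above a minimum with tunicamycin. Membership was selected on 5 measured criteria. Levels are in CPM (counts-per-million), each gene's count scaled to the sum over genes in its library, and each group value was the mean of 4 libraries. A gene needed at least 2 CPM with IL-4/IL-13, a ratio of at least 2 between that mean and the naive mean plus 0.05, a mean at least 25% above that of IL-4/IL-13 alone in each of the 2 oligomycin groups, and a tunicamycin mean above 0.5 of the IL-4/IL-13 mean. The genes that met all of these were *Stt3b*, *Id2*, *Ptger2*, *Slc7a1*, *Slc7a11*, *Bcl2*, *Mtbp*, *Phgdh*, *Gm38575* and *Ccl7*.

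The cells were wild-type C57BL/6J mouse bone marrow–derived macrophages, grown from marrow with macrophage colony-stimulating factor, and the methods of the study describe the donors as 9-week-old female mice. The 24 libraries came from 4 mice, numbered 1, 2, 4 and 5, with 1 library per mouse in each of 6 groups. Naive cells received no cytokine. The other 5 groups received 20 ng/mL IL-4 and 20 ng/mL IL-13 for 24 h, either alone or after 1 h with an inhibitor, which was given again with the cytokines: oligomycin at 1 µM in 2 groups, Sal003 at 10 µM, or tunicamycin at 5 µg/mL. One of the oligomycin groups also received ISRIB at 1 µM, and the labels contradict each other on which one. Titles and treatment fields give ISRIB to the libraries whose library name is Oligo, whereas the library and replicate names give it to Oli_ISR. The measured values were not used to decide, so the groups are called oligomycin set A (library name Oligo, title Oligomycin_ISRIB) and oligomycin set B (library name Oli_ISR, title Oligomycin).

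IL-4 and IL-13 signal through receptors that share the IL-4 receptor α chain and activate the transcription factor STAT6, which turns on the genes of alternatively activated macrophages. Oligomycin blocks the mitochondrial ATP synthase. Sal003 blocks the removal of phosphate from the translation factor eIF2α, and tunicamycin blocks N-linked glycosylation and stresses the endoplasmic reticulum. Phosphorylated eIF2α lowers general translation while favouring the transcription factor ATF4, whose targets include amino acid transporters and enzymes of amino acid synthesis; this is the integrated stress response (ISR). ISRIB acts on eIF2B and blunts the effect of phosphorylated eIF2α.

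Libraries held between 16238727 and 26725278 counts in genes. Macrophage identity was checked against 10 marker genes. All 10 reached a mean of at least 1 CPM in at least 1 group, their summed means ran from 10583 CPM in set A to 35426 CPM in naive cells, and *Lyz2*, encoding lysozyme, was the most abundant. Markers of natural killer cells and of mast cells or basophils stayed under 1 CPM in every group mean, and *Ncr1*, *Gzma*, *Mcpt4* and *Tpsb2* had no count in any library. Of 6 T cell markers, only *Cd4* reached 1 CPM, and their summed mean was 11.8 CPM in naive cells and 2.23 with IL-4/IL-13. It was 2.02 in set A, 2.37 in set B, 3.11 with Sal003 and 1.30 with tunicamycin. Of 5 B cell markers, only *Cd79b* reached 1 CPM, with a summed mean of 2.26 CPM in naive cells and 1.71 with IL-4/IL-13. This sum was 0.267 in set A, 0.405 in set B, 0.67 with Sal003 and 2.72 with tunicamycin. Of 8 neutrophil markers, 6 reached 1 CPM in some group, led by *S100a9* at 18.4 CPM. The summed neutrophil markers lay between 41.7 and 76.0 CPM over the naive libraries, 24.4 and 43.9 with IL-4/IL-13, 18.0 and 23.9 in set B, 4.83 and 8.03 with Sal003, 2.85 and 4.83 in set A, and 0.108 and 0.295 with tunicamycin. Summed fibroblast and stromal markers, led by *Col1a2*, differed widely among mice, from 20.6 to 149.2 CPM over the naive libraries and from 16.9 to 93.6 CPM with IL-4/IL-13. Their summed mean was 87.1 CPM in naive cells, 54.5 with IL-4/IL-13, 32.0 in set A, 29.2 in set B, 28.9 with Sal003 and 16.7 with tunicamycin. Of 6 osteoclast markers, 4 reached 1 CPM, led by *Dcstamp*, and *Calcr* had no count. Their summed mean was 41.2 CPM in naive cells, 329.3 with IL-4/IL-13, 68.7 in set A, 106.8 in set B, 93.0 with Sal003 and 48.3 with tunicamycin. *Dcstamp* and *Ocstamp* carried most of that difference, whereas *Ctsk* was at 24.9 CPM with IL-4/IL-13, 34.3 in set A, 34.5 in set B and 38.1 with Sal003. Of 6 dendritic cell markers, 5 reached 1 CPM, led by *Zbtb46*, and their summed mean was 10.6 CPM in naive cells, 10.9 with IL-4/IL-13, 2.82 in set A, 3.29 in set B, 3.57 with Sal003 and 2.14 with tunicamycin. Of 4 megakaryocyte markers, 3 reached 1 CPM, led by *Pf4*, and their summed mean was 27.5 CPM in naive cells, 13.6 with IL-4/IL-13, 14.0 in set A, 14.1 in set B, 8.79 with Sal003 and 56.8 with tunicamycin. Of 4 endothelial markers, 2 reached 1 CPM, led by *Pecam1*, and their summed mean was 21.3 CPM in naive cells, 33.4 with IL-4/IL-13, 18.2 in set A, 18.4 in set B, 17.5 with Sal003 and 6.21 with tunicamycin. These markers ran opposite ways: *Pecam1* was at 10.9 CPM in naive cells, 32.2 with IL-4/IL-13, 2.40 in set A, 6.43 in set B and 6.39 with Sal003, whereas *Kdr* was at 9.90, 1.03, 15.6, 11.9 and 10.9 CPM in the same order. The part of any of these marker genes or cells in the results below was not tested. In bulk RNA, fewer cells of a type and less RNA per cell cannot be told apart.

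Some libraries stood apart within their group. For genes with at least 20 counts summed over a pair of libraries, the chi-square per degree of freedom between the naive library of mouse 2 and the other naive libraries was 27.3 to 35.9, against 6.05 to 7.98 among those others. In set B, mice 1 and 4 differed by 6.01 and mice 2 and 5 by 3.20, whereas pairs across these differed by 12.9 to 18.9. With Sal003, mice 4 and 5 differed by 22.0 and the other pairs by 3.18 to 9.86; with either of these mice left out of every group, 6 members were still called higher with Sal003, and 1 was called lower without mouse 4 and 2 without mouse 5. With the naive library of mouse 2 left out, 9 genes met the rule: *Ccl7* and *Stt3b* fell out and *Atf5* came in.

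The values that chose the 10 genes are a description and carry no test. Among 10923 genes with at least 2 CPM under IL-4/IL-13, 7.87% had the required ratio to naive cells, 28.7% had a set A mean at least 25% above the cytokine mean and 14.3% had such a set B mean. Among the 860 genes that met the induction criteria, 7.21% passed that limit in set A, 4.65% passed in set B, and 30 genes passed in each of them. Of those 30, the tunicamycin criterion left out 20. The median ratio to IL-4/IL-13 alone over the 860 induced genes was 0.400 in set A, 0.486 in set B, 0.451 with Sal003 and 0.168 with tunicamycin. Over the 10 genes the corresponding medians were 2.77, 1.60, 1.32 and 1.90. The rule set a lower limit on the oligomycin ratios and on the tunicamycin ratio, so these medians were fixed from below by selection.

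Several members lay close to a threshold. *Ccl7* and *Stt3b* had a ratio to naive cells plus 0.05 of 2.00, and *Id2* followed at 2.14; just outside were *Atf5* at 1.98, *Slc2a1* at 1.95 and *Cd274* at 1.94. For the smaller of the oligomycin ratios, *Slc7a11* at 1.27, *Ptger2* at 1.30 and *Stt3b* at 1.31 were just inside, and *Rgl1* at 1.21, *Zfp609* at 1.17 and *Vat1* at 1.16 just outside. *Id2* was the nearest to the tunicamycin limit, at 0.566 of the IL-4/IL-13 mean, with *Ctsk* at 0.482, *Cst7* at 0.435 and *Insl6* at 0.421 excluded by it. At the level limit, *Ccl7* entered with 2.22 CPM, while *Flrt3* at 1.92 CPM did not.

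**Figure D1:**
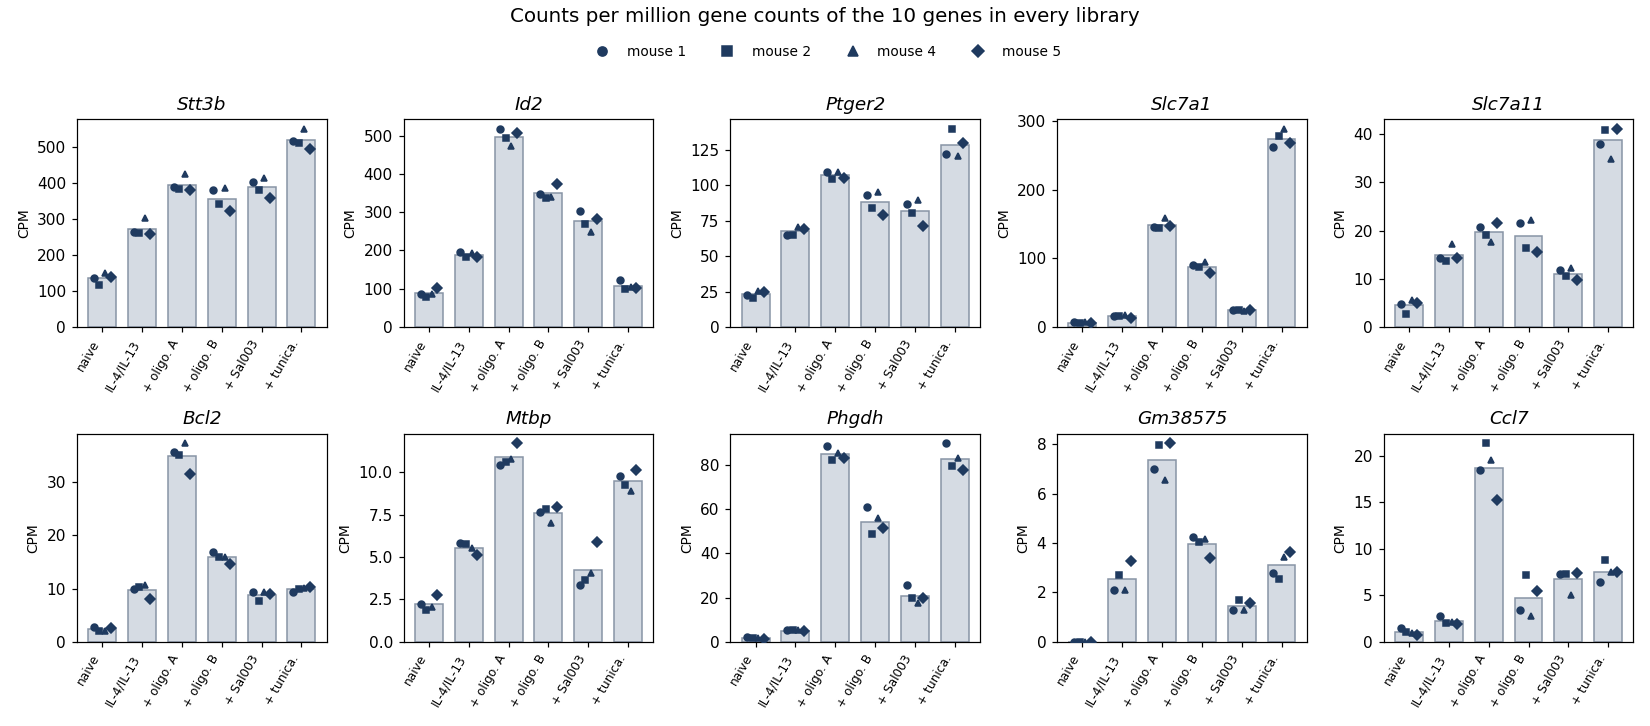
CPM (y axis, linear and starting at 0, with its own scale for each gene) of the 10 genes in 6 groups. Bars are means of 4 libraries and symbols are the libraries of mice 1, 2, 4 and 5. *Slc7a1* and *Phgdh* were highest with oligomycin or tunicamycin, *Bcl2* and *Ccl7* were highest in oligomycin set A, and *Id2* with tunicamycin lay below IL-4/IL-13 alone.

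The Sal003 libraries took no part in choosing the genes, so they could be tested, with the limit that the IL-4/IL-13 libraries on the other side of the comparison also entered the rule. With an adjusted *P* under 0.05, 6 of the 10 genes rose under Sal003 relative to the cytokines alone: *Phgdh*, *Ccl7*, *Slc7a1*, *Id2*, *Stt3b* and *Ptger2*. *Gm38575* was lower, and *Slc7a11*, *Bcl2* and *Mtbp* did not pass. In the fit with the mouse as a block, *Slc7a11* and *Mtbp* were also called lower, 3 genes in all, and the same 6 were called higher. Across all 13679 genes tested, 25.9% were called higher and 24.6% lower, and the median log2 fold change was 0.00. Of the 860 induced genes, 59 (6.86%) were called higher and 709 (82.4%) lower, with a median of -1.05, against a median of 0.49 over the 10 genes. Membership required high values under another inhibitor, so this difference of medians has no test of its own. Fold changes were computed after TMM scaling, whose factors were 0.936 to 0.950 with Sal003, 0.953 to 0.967 in set B and 1.02 to 1.05 in set A, so they differ from plain ratios of mean CPM, on which the mouse counts below rest unless stated.

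The difference between the oligomycin sets is given as a description of the 10 genes, because the values of both sets chose them. Plain mean CPM was higher in set A than in set B for all 10, and no library of set A overlapped set B for 8 of them, *Stt3b* and *Slc7a11* being the others. With TMM-scaled libraries the mean was higher in set A for 9, *Slc7a11* being the other, and 7 did not overlap, since *Ptger2* then overlapped too. How many of all genes have a higher mean or separate libraries in this way was not counted, so nothing is read from these numbers. Over the 10923 genes with at least 2 CPM under IL-4/IL-13, plain ratios to the cytokines alone had a median of 1.03 for set A. For set B that median was 0.956. The edgeR fit over all genes called 19.9% higher and 21.3% lower in set A, and 7 of the 10 genes were among the former and 0 among the latter; nothing is read from these counts for genes selected on both sets. Among the induced genes, 99 (11.5%) were called higher and 400 (46.5%) lower in set A. The median log2 fold change of set A over set B was -0.30 over the induced genes and 0.00 over all genes tested.

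*Slc7a1* encodes the cationic amino acid transporter that carries arginine and lysine into the cell and is a known target of ATF4. *Slc7a1* stood at 6.84, 5.57, 6.92 and 6.36 CPM in the naive libraries of mice 1, 2, 4 and 5, and at 16.3, 15.8, 17.8 and 12.6 CPM with IL-4/IL-13. With oligomycin, *Slc7a1* reached 146, 144, 159 and 148 CPM in set A and 91.1, 87.6, 94.6 and 78.1 CPM in set B. No library of one set overlapped the other, and all lay far above the cytokine libraries. The set A mean of 149 ± 6.89 CPM (SD, n = 4) was 9.54 times the IL-4/IL-13 mean and the set B mean of 87.8 ± 7.09 CPM was 5.62 times. Set A exceeded set B in 4 of 4 mice, with a ratio of means of 1.70. Under Sal003, *Slc7a1* was at 24.98, 25.2, 22.9 and 25.2 CPM, above every cytokine library but far below either oligomycin set. That rise was seen in 4 of 4 mice (log2 fold change 0.74 ± 0.09 (SE), edgeR adjusted *P* = 6.99e-08). With tunicamycin, *Slc7a1* was at 263, 278, 289 and 269 CPM, 17.6 times the cytokine mean, which was the largest tunicamycin ratio among the 10 genes.

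*Phgdh* encodes phosphoglycerate dehydrogenase, the enzyme that commits a glycolytic intermediate to serine synthesis. *Phgdh* was low in naive cells, at 2.21, 1.52, 1.85 and 1.07 CPM, and stood at 5.20, 5.31, 5.14 and 4.74 CPM with IL-4/IL-13. In oligomycin-treated cells, *Phgdh* measured 88.4, 82.3, 85.0 and 83.1 CPM in set A and 61.0, 48.7, 55.7 and 51.5 CPM in set B. These were the largest oligomycin ratios of the 10 genes, 16.6 and 10.6, and the sets did not overlap, with set A 1.56 times set B. Sal003 brought *Phgdh* to 25.8, 19.6, 17.6 and 20.0 CPM, between the cytokine and oligomycin libraries. It rose in 4 of 4 mice (log2 fold change 2.12 ± 0.12 (SE), edgeR adjusted *P* = 2.11e-13), the largest Sal003 change of the 10. Tunicamycin gave *Phgdh* values of 89.5, 79.3, 83.0 and 77.7 CPM, which overlapped those of set A; this level was 16.2 times that with IL-4/IL-13 alone.

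*Slc7a11* encodes xCT, the light chain of the exchanger that imports cystine in return for glutamate, and is a target of both ATF4 and NRF2, the regulator of antioxidant genes. *Slc7a11* was at 4.78, 2.701, 5.65 and 5.04 CPM in naive cells and at 14.3, 13.7, 17.2 and 14.2 CPM with the cytokines. Among oligomycin libraries, *Slc7a11* was at 20.7, 19.1, 17.5 and 21.5 CPM in set A and 21.6, 16.4, 22.3 and 15.5 CPM in set B, where the lower libraries overlapped IL-4/IL-13 alone. The ratios of 1.33 and 1.27 were the smallest of the 10 genes, and without mouse 1 the gene no longer met the rule. The sets overlapped each other and set A was the higher in 2 of 4 mice, with a ratio of means of 1.04 by plain CPM and 0.96 after TMM scaling (log2 fold change -0.05). With Sal003, *Slc7a11* was at 11.9, 10.5, 12.3 and 9.68 CPM, below every cytokine library. The Sal003 difference narrowly missed the threshold although it was lower in 4 of 4 mice (log2 fold change -0.33 ± 0.14 (SE), edgeR adjusted *P* = 0.0517), and with the mouse as a block the adjusted *P* was 0.0373. With tunicamycin, *Slc7a11* was at 37.9, 41.0, 34.9 and 41.2 CPM, 2.60 times the cytokine mean and above all oligomycin libraries.

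*Stt3b* encodes a catalytic subunit of oligosaccharyltransferase, the complex that moves N-linked glycans onto proteins in the endoplasmic reticulum. *Stt3b* stood at 137, 118, 149.5 and 139 CPM in naive libraries and 266, 262, 302 and 259.6 CPM with IL-4/IL-13, by count the most abundant of the 10 genes under the cytokines alone. Oligomycin values of *Stt3b* were 389.9, 385, 426 and 381 CPM in set A and 381, 342, 385 and 322 CPM in set B. The sets overlapped. The plain ratio of set A to set B was 1.11 in mean CPM and 1.02 after TMM scaling, and set A was the higher in 4 of 4 mice by plain CPM and in 3 of 4 after scaling. Sal003 gave *Stt3b* values of 402, 381, 414 and 360.2 CPM, all above the cytokine libraries and overlapping those of set A. The gene rose with Sal003 in 4 of 4 mice (log2 fold change 0.61 ± 0.07 (SE), edgeR adjusted *P* = 2.15e-07). Tunicamycin values of *Stt3b* were 518, 512, 552 and 495 CPM, higher than in any other library.

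*Id2* encodes a helix-loop-helix protein that lacks a DNA-binding region and holds E proteins off DNA. *Id2* measured 85.8, 79.1, 86.8 and 101 CPM in naive cells and 196, 182, 194 and 184 CPM with IL-4/IL-13. Oligomycin libraries held *Id2* at 518, 493, 473 and 505 CPM in set A and 346, 336, 340.2 and 374 CPM in set B, with no overlap between the sets or with the cytokine libraries. Set A was the higher in 4 of 4 mice, with a ratio of means of 1.42. Sal003 libraries held *Id2* at 302, 270.3, 249 and 283 CPM, between IL-4/IL-13 alone and set B. The increase with Sal003 was seen in 4 of 4 mice (log2 fold change 0.64 ± 0.07 (SE), edgeR adjusted *P* = 1e-08). Tunicamycin libraries held *Id2* at 123, 99.3, 104 and 101 CPM, below every library with the cytokines alone, so that *Id2* was the one member with a tunicamycin mean under its IL-4/IL-13 mean, at 0.566 of it. That mean was 1.21 times the naive mean.

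*Bcl2* encodes a protein that holds back mitochondrial apoptosis. *Bcl2* was at 2.77, 2.08, 2.11 and 2.60 CPM in naive cells and 9.94, 10.3, 10.7 and 8.01 CPM with IL-4/IL-13. Set A carried *Bcl2* at 35.7, 35.2, 37.3 and 31.5 CPM and set B at 16.9, 15.9, 16.0 and 14.7 CPM. The libraries of naive, IL-4/IL-13, set B and set A cells lay in rising order without overlap, and the set A mean was 2.20 times that of set B. Sal003 left *Bcl2* at 9.41, 7.76, 9.38 and 8.95 CPM, overlapping the cytokine libraries. It was lower in 3 of 4 mice by plain CPM and in 2 of 4 after TMM scaling, and did not pass (log2 fold change -0.04 ± 0.09 (SE), edgeR adjusted *P* = 0.753). With tunicamycin, *Bcl2* was at 9.43, 9.99, 10.0 and 10.4 CPM, a ratio of 1.03 to the cytokines alone with overlapping libraries.

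*Mtbp* encodes MDM2-binding protein, which takes part in the start of DNA replication. *Mtbp* was at 2.21, 1.86, 2.06 and 2.75 CPM in naive cells and 5.83, 5.77, 5.51 and 5.11 CPM with IL-4/IL-13. Both oligomycin sets held *Mtbp* higher, at 10.4, 10.6, 10.8 and 11.7 CPM in set A and 7.64, 7.80, 7.02 and 7.97 CPM in set B. Set A was above set B in 4 of 4 mice, with a ratio of means of 1.43. Sal003 libraries of *Mtbp* were at 3.35, 3.64, 4.08 and 5.89 CPM, with mouse 5 above every cytokine library and the other mice below. The difference did not pass (log2 fold change -0.29 ± 0.13 (SE), edgeR adjusted *P* = 0.0587); leaving out mouse 5 gave a log2 fold change of -0.54 with an edgeR adjusted *P* of 0.000309, and the blocked fit gave an adjusted *P* of 0.0342. Tunicamycin gave *Mtbp* values of 9.76, 9.25, 8.88 and 10.1 CPM, 1.71 times the cytokine mean. Exons of *Mtbp* overlap those of *Mrpl13*, a mitochondrial ribosomal protein gene on the opposite strand with a mean of 23.7 CPM under IL-4/IL-13. Whether the counting used strand is not stated in the sources used here, so *Mtbp* counts are uncertain.

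*Ptger2* encodes the prostaglandin E2 receptor EP2, which raises cyclic AMP. *Ptger2* stood at 22.5, 20.4, 25.6 and 24.4 CPM in naive cells and at 65.1, 65.1, 70.4 and 69.4 CPM with IL-4/IL-13. Oligomycin gave *Ptger2* values of 109, 104, 109 and 105 CPM in set A and 93.0, 84.0, 95.4 and 78.8 CPM in set B. The libraries of the sets did not overlap, and the ratio of means was 1.22; after TMM scaling the libraries overlapped and the ratio was 1.12. Sal003 gave *Ptger2* values of 87.0, 80.4, 89.4 and 71.0 CPM, with mouse 5 nearest to the cytokine libraries. The gene rose in 4 of 4 mice (log2 fold change 0.37 ± 0.08 (SE), edgeR adjusted *P* = 0.000192). Tunicamycin brought *Ptger2* to 122, 139.7, 120.3 and 129.6 CPM, above all other libraries and 1.90 times the cytokine mean. An antisense long noncoding gene, *Gm17173*, overlaps its exons and had a mean of 0.309 CPM with IL-4/IL-13 and 3.76 CPM with tunicamycin, so these counts are uncertain to that extent.

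*Ccl7* encodes a chemokine that draws monocytes through the receptor CCR2. *Ccl7* was at 1.51, 1.01, 0.951 and 0.764 CPM in naive cells and 2.74, 1.99, 2.18 and 1.97 CPM with IL-4/IL-13, the lowest cytokine mean of the 10 genes. Set A held *Ccl7* at 18.5, 21.3, 19.6 and 15.2 CPM and set B at 3.46, 7.22, 2.75 and 5.50 CPM. Within set B, mice 2 and 5 had more *Ccl7* than mice 1 and 4, the same division of libraries seen in the chi-square values, and its part in the result was not tested. Set A exceeded set B by 5.35, 2.95, 7.11 and 2.77 times in mice 1, 2, 4 and 5, and the ratio of means, 3.94, was the largest between the sets among the 10 genes. Sal003 brought *Ccl7* to 7.29, 7.28, 5.03 and 7.45 CPM, with mouse 4 lowest but above all cytokine libraries. It rose in 4 of 4 mice (log2 fold change 1.70 ± 0.23 (SE), edgeR adjusted *P* = 8.67e-07). Tunicamycin values of *Ccl7* were 6.41, 8.81, 7.49 and 7.45 CPM, below every library of set A and 3.39 times the cytokine mean.

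*Gm38575* is annotated as a long noncoding RNA on chromosome 10 and is the one member that does not code for a protein. *Gm38575* had 0 counts in all 4 naive libraries. Against a floor of 3 counts over the naive group, the IL-4/IL-13 mean of 2.54 ± 0.561 CPM (SD, n = 4) was at least 64.5-fold higher. With the cytokines, *Gm38575* measured 2.11, 2.71, 2.08 and 3.26 CPM in mice 1, 2, 4 and 5. Oligomycin libraries of *Gm38575* stood at 6.98, 7.95, 6.54 and 8.03 CPM in set A and 4.23, 4.04, 4.16 and 3.40 CPM in set B, without overlap and with a ratio of means of 1.86. Sal003 libraries of *Gm38575* stood at 1.28, 1.71, 1.27 and 1.56 CPM, all below the cytokine libraries. It fell in 4 of 4 mice (log2 fold change -0.70 ± 0.17 (SE), edgeR adjusted *P* = 0.00194), the one member called lower with Sal003. Tunicamycin left *Gm38575* at 2.80, 2.56, 3.42 and 3.62 CPM, overlapping the cytokine libraries at a ratio of 1.22.

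**Figure D2:**
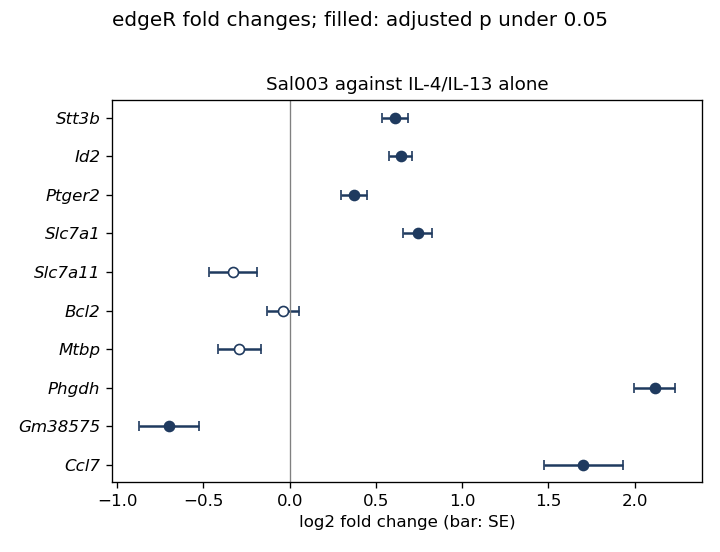
Log2 fold changes (x axis) with standard errors from edgeR for the 10 genes, for Sal003 against IL-4/IL-13 alone; filled points have an adjusted *P* under 0.05. *Phgdh* and *Ccl7* are farthest to the right and *Gm38575* is farthest to the left.

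With tunicamycin, which the rule also used, the values are a description. The comparisons share the IL-4/IL-13 libraries, so their values are given without a measure of likeness. A tunicamycin mean at least 25% above that of the cytokines alone was found in 7 of the 10 genes, a share set partly by the rule, against 34.4% of genes with at least 2 CPM and 6.05% of the induced genes. *Slc7a1*, *Ptger2*, *Slc7a11* and *Stt3b* had every tunicamycin library above every library of set A. *Id2*, *Bcl2*, *Mtbp*, *Gm38575* and *Ccl7* had every tunicamycin library below every library of set A, and *Phgdh* overlapped. Both groups entered the rule and the share of all genes that separate in this way was not counted, so nothing is read from this division. *Bcl2* and *Gm38575* had tunicamycin libraries that overlapped those with IL-4/IL-13 alone.

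Levels of different genes are compared here as mean CPM per kilobase of annotated exon. Under IL-4/IL-13 the order from high to low was *Id2* at 54.2, *Stt3b* at 27.1, *Ptger2* at 13.0, *Ccl7* at 2.75, *Phgdh* at 1.804, *Slc7a1* at 1.33, *Bcl2* at 1.05, *Slc7a11* at 0.958, *Mtbp* at 0.606 and *Gm38575* at 0.372. In set A, *Phgdh* at 30.0 and *Ccl7* at 23.1 stood above *Ptger2* at 20.6 on this scale, and *Id2* at 142.7 remained the highest. With tunicamycin, *Stt3b* at 51.6 was the highest, and *Id2* at 30.7 and *Phgdh* at 29.2 followed.

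Gene lists of related pathways place the members among their neighbours. The list of ATF4 and ISR targets held *Phgdh*, *Slc7a11* and *Slc7a1* among its 40 genes. Over all genes tested, 25.9% were called higher and 24.6% lower with Sal003, and 19.9% and 21.3% in set A against set B. With Sal003, 26 of the 37 tested genes of the ATF4 and ISR list were called higher and 4 lower. Between the sets, 28 were higher in set A than in set B, with 1 lower. Its 29 genes at or above 2 CPM under IL-4/IL-13 had median ratios to the cytokines alone of 5.35 in set A, 2.82 in set B, 1.42 with Sal003 and 5.96 with tunicamycin. Of these 29, 5 met the induction criteria, against 7.87% of the 10923 genes with at least 2 CPM under IL-4/IL-13. They were the members of the list and also *Atf3* and *Psat1*. *Atf3*, a stress-induced transcription factor, had a set A ratio of 0.857 and a set B ratio of 0.941, whereas *Psat1*, the aminotransferase after *Phgdh* in serine synthesis, had ratios of 0.948 and 0.934. *Psat1* had a mean of 39.14 ± 2.16 CPM (SD, n = 4) with IL-4/IL-13 and 13.9 ± 2.61 CPM with Sal003, the opposite order to *Phgdh*. *Atf5*, a transcription factor of the same list, missed membership through its ratio to naive cells, with ratios of 5.56 in set A and 4.71 in set B.

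Of 22 IL-4/IL-13 marker genes, 20 met the induction criteria and none was a member; 4 were called higher and 16 lower with Sal003, and their median ratio was 0.314 in set A, 0.562 in set B and 0.00710 with tunicamycin. *Slc7a11* was the one member among 21 NRF2 targets, of which 7 were called higher and 13 lower with Sal003. *Ccl7* was the one member among 43 chemokines, cytokines and growth factors, where 12 of 39 tested were higher with Sal003 and 13 lower, and 12 were higher in each oligomycin set than in the other. The remaining 11 lists also held none. The shares over all genes tested were 25.9% higher and 24.6% lower with Sal003, and 19.9% and 21.3% in set A against set B. Called higher and lower with Sal003 were 8 and 6 of 19 genes of IL-4/IL-13 receptor signalling, 8 and 9 of 34 HIF and glycolysis genes, 1 and 13 of 19 AP-1 and immediate early genes, and 2 and 8 of 10 Krüppel-like factors. For lipid handling the counts were 9 and 4 of 21, for lysosomal genes 21 and 3 of 25, for p53 targets 8 and 2 of 16, and for cholesterol and fatty acid synthesis 1 and 10 of 20. Endoplasmic reticulum chaperones gave 6 and 6 of 18, proliferation genes 0 and 19 of 19 by edgeR, and interferon-stimulated genes 16 and 0 of 18.

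The 10 genes lay on 9 chromosomes of the GRCm39 build. *Slc7a11* (chr3:49846975-50398070) and *Phgdh* (chr3:98220484-98255047) shared chromosome 3, 47.8 megabases apart. *Slc7a1* lay at chr5:148264220-148336848, *Stt3b* at chr9:115067685-115140000, *Id2* at chr12:25143798-25147282 and *Bcl2* at chr1:106465908-106642060. *Ptger2* lay at chr14:45225652-45241277, *Mtbp* at chr15:55420767-55489819, *Gm38575* at chr10:85024181-85102462 and *Ccl7* at chr11:81936532-81938351. No other annotated gene overlapped *Phgdh* or *Ccl7*; the other 8 each overlapped at least 1, and apart from *Mrpl13* and *Gm17173* those present in the count table had group means under 0.1 CPM.

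RefSeq promoter windows of 300 bases, 250 before and 50 after the annotated start in GRCm38.p6, matched 7 of the 10 genes; *Mtbp*, *Gm38575* and *Ccl7* had none. Both strands were searched for 8 motifs, and each share below is of all 32851 windows. The antioxidant element TGACNNNGC was present in the windows of *Id2*, *Phgdh*, *Slc7a1* and *Stt3b*, against 12.4% of all windows. The STAT6-type palindrome TTCNNNNGAA was present in *Stt3b* alone, against 6.95%, and the AP-1 motif TGANTCA, which can overlap TGACNNNGC, in *Slc7a1* alone, against 7.81%. No member window held the C/EBP-ATF response element in the form searched, TGATGNAAT with a fixed last T (0.965% of all windows). The CRE TGACGTCA (1.79%), the E-box CACGTG (7.15%) and the interferon element GAAANNGAAA (3.44%) were also absent. So was the hypoxia element ACGTG (19.6%), which is contained in CACGTG. The first 8 letters of the C/EBP-ATF element, TGATGNAA, were searched after the longer form had no match. They were present in *Slc7a11* alone, once on each strand, against 3.97% of all windows. Both *Slc7a11* matches are followed by A where the longer form searched has T, so a form with a free last letter would include them. A match is a description of the letters and not a binding site.

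The bases before the RefSeq starts of *Slc7a11*, which holds the TGATGNAA letters, and of *Phgdh*, which like *Slc7a1* does not, are shown from RefSeq, placed by exact match on the minus strand of GRCm39 and ended where an annotated exon begins. The *Phgdh* stretch lies inside the gene as GENCODE bounds it, since an annotated transcript starts farther upstream, but in none of its exons. Capitals mark TGATGNAA matches in *Slc7a11* (chr3:50398071-50398312), the second being on the reverse strand, and the TGACNNNGC match on the reverse strand in *Phgdh* (chr3:98247307-98247535).
Slc7a11: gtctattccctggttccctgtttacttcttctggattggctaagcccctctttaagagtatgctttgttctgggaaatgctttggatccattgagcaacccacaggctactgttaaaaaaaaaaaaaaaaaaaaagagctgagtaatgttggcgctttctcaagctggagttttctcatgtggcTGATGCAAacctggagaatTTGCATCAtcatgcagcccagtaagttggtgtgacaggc
Phgdh: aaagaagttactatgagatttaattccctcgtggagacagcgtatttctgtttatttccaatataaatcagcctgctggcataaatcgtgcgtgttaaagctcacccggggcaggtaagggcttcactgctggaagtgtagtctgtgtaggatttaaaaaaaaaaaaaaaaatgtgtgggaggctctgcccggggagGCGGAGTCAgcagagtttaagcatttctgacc

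Short stretches around the AP-1 match of *Slc7a1* (chr5:148336821-148336847, minus strand) and the STAT6-type palindrome of *Stt3b* (chr9:115139701-115139730, minus strand) show the motifs with 10 bases on each side, the motif in capitals. Both motifs read the same on either strand in the letters that are fixed. Each stretch lies before the RefSeq start but inside the gene as GENCODE bounds it.
Slc7a1: ccatcagctcTGACTCAagctcagttg
Stt3b: tggagggccaTTCAGCCGAAgccccgccca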

How the data were processed

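RNA-seq of bone marrow–derived macrophages gave 24 libraries in 6 groups. The authors' deposited table holds raw counts per gene; per the submitters' processing notes reads were trimmed with cutadapt 1.8, aligned with STAR 2.7 to GRCm39 and counted with HTSeq 0.9.1. Strand use was not given in the sources used here. A second deposited table, from RSEM 1.2.31, was not used because its header has more names than its lines have cells. The 5 rows of HTSeq totals, 12.7% to 15.2% of a library, entered neither the library sizes nor the tests. Each column was joined to its sample by library name.

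CPM, group means and the membership rule were computed in Python 3.11.15 with pandas 2.3.3. Counts were tested with edgeR 4.0.16 in R 4.3.3: genes kept by filterByExpr (13679, including all 10 members), TMM scaling, and a single quasi-likelihood fit of all 24 libraries with a coefficient for each group, with Benjamini-Hochberg adjustment over all genes tested and calls at an adjusted *P* under 0.05. Standard errors were the log2 fold change divided by the square root of the test's F. IL-4/IL-13 against naive cells, and each oligomycin set and tunicamycin against IL-4/IL-13, were used by the rule and were not tested; oligomycin set A against set B was fitted, but for the members its values are a description, since both sets entered the rule. Named genes were the members, with list genes and threshold neighbours by fixed rules; the members and gene lists were chosen with earlier results of these data known. *Atf5*, *Atf3* and *Psat1* were singled out after their values were seen.

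Same-numbered libraries come from the same mouse, by their titles. After group means were subtracted, the median correlation was 0.24 in 60 same-mouse pairs and -0.05 in 180 other pairs. The blocked fit was run as an alternative, as were DESeq2 1.42.0, upper-quartile scaling, other filters, fits of the compared groups alone and leaving out each mouse. Gene names and coordinates came from GENCODE vM39 on GRCm39, which held 56323 of the 56884 identifiers; the study names an older annotation release of that build. Promoter windows came from RefSeq on GRCm38.p6.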

Additional observations from a re-analysis of the deposited data

Results flagged for a closer look

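Among 59 sets of 4 libraries (10 genes in 6 groups, leaving out *Gm38575* in naive cells), 3 had 1 library far from the others by Dixon's test for 4 values; chance gives about 1 in 20. *Stt3b* with IL-4/IL-13 alone was at 302.4 CPM in mouse 4, against 259.6 to 265.7 CPM in the other mice. *Slc7a1* with Sal003 was at 22.9 CPM in mouse 4, against 24.98 to 25.22 CPM in the others. *Ccl7* with Sal003 was at 5.03 CPM in mouse 4, against 7.28 to 7.45 CPM in the others.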

How the results depend on the processing

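The number of genes that met the rule was 10, between 9 and 12 with 1 mouse or the naive library of mouse 2 left out, 11 with group medians and 10 with TMM-scaled libraries. It was 6 with a minimum ratio of 1.5, and 2 when genes overlapped by any other annotated gene were left out. *Ccl7* and *Stt3b* each fell out when any of several libraries was left out: *Ccl7* without mouse 4 or mouse 5, *Stt3b* without mouse 2 or mouse 4. *Stt3b* also fell out with group medians, where *Atf5* and *Ctsk* came in. With TMM scaling, *Ccl7* fell out and *Rgl1* came in.

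The 6 members higher with Sal003 were 6 with DESeq2, upper-quartile scaling, either other filter, the compared groups alone, the mouse as a block and each mouse left out. They were 2 at a minimum of 2.5-fold and 2 among members that no annotated gene overlaps. The single member lower with Sal003 became 2 with DESeq2, without a filter, with at least 10 counts in every library and with the compared groups alone, 3 with upper-quartile scaling and 3 in the fit with the mouse as a block, and 0 at 2.5-fold or without overlapped members. It was 1 to 2 with a mouse left out. *Slc7a11* or *Mtbp*, or both, made the larger counts, whereas the counts of 0 came from *Gm38575*, which fell by less than 2.5-fold and is overlapped by another gene. It was not tested with at least 10 counts in every library because its naive counts are 0. The sets chose the members, so calls between them are a description. The 7 members called higher in set A were between 6 and 8 under these settings, 6 to 7 with a mouse left out and 8 in the blocked fit; they were 1 at 2.5-fold and 2 without overlapped members. The count lower in set A was 0 throughout.

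Values for single genes changed sign 3 times in 198 refits, for genes that did not pass in either fit: *Bcl2* with Sal003 had a log2 fold change of 0.0462 without mouse 2 (from -0.129 without mouse 5), and *Slc7a11* between the sets had 0.0042 without mouse 1 and 0.083 without mouse 4 (from -0.181 without mouse 5). The blocked fit changed the call of *Slc7a11* and *Mtbp* with Sal003 and of *Ptger2* between the sets, and no other. Further settings were chosen after seeing the data: leaving out the naive library of mouse 2, and leaving out *Mtbp* and *Ptger2*, whose exons overlap a gene of at least 1 CPM, which left 8 members, 5 higher and 1 lower with Sal003, and 6 higher in set A. The adjusted *P* for *Mtbp* with Sal003 ranged from 0.000309 to 0.354 over its settings, and that for *Slc7a11* with Sal003 from 0.0122 to 0.145. The causes were not tested. Few reads stand behind some values: *Ccl7* had 15 to 30 counts per library in naive cells and 32 to 48 with IL-4/IL-13, *Gm38575* 37 to 53 with IL-4/IL-13 and 24 to 32 with Sal003, and *Phgdh* 21 to 44 in naive cells.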

Other observations

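Genes related to the members by family or complex were looked up after the members were known, and their ratios to IL-4/IL-13 alone are given without a test. Only some of those looked up are named, and relatives of the same member did not all run the same way. *Slc7a2*, which encodes another arginine transporter, had a mean of 349 ± 15.4 CPM (SD, n = 4) with IL-4/IL-13 against 6.43 ± 1.27 in naive cells, and ratios of 0.974 in set A, 1.43 in set B, 1.28 with Sal003 and 0.00920 with tunicamycin. *Slc3a2*, the heavy chain that pairs with xCT, was not induced by the cytokines (204 CPM against 242 in naive cells) and had ratios of 5.62 in set A, 3.14 in set B, 2.38 with Sal003 and 14.8 with tunicamycin. *Psph*, the last enzyme of serine synthesis, had ratios of 2.59, 1.77, 1.22 and 3.72 in the same order.

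*Stt3a*, the other catalytic subunit of oligosaccharyltransferase, had ratios of 1.66 in set A, 1.21 in set B, 1.19 with Sal003 and 4.68 with tunicamycin. *Rpn1* and *Dad1*, of the same complex, had 0.905 and 0.819 in set A and 0.932 and 0.886 in set B. Their ratios were 1.12 and 1.14 with Sal003 and 3.30 and 1.84 with tunicamycin. *Rpn2*, *Ddost* and *Magt1*, also of this complex, had 1.45, 1.22 and 1.06 in set A and 1.26, 1.11 and 0.9325 in set B. *Id3*, a relative of *Id2*, was lower with the cytokines (65.3 ± 13.2 CPM) than in naive cells (119.5 ± 8.76 CPM), and had ratios of 1.48 in set A, 1.58 in set B, 2.11 with Sal003 and 0.0323 with tunicamycin. *Ptger4*, encoding another prostaglandin E2 receptor that raises cyclic AMP, was at 70.8 ± 7.15 CPM in naive cells and 17.1 ± 1.803 CPM with the cytokines, the opposite order to *Ptger2*, and had ratios of 1.79 in set A, 0.882 in set B, 1.505 with Sal003 and 2.77 with tunicamycin. *Ptger3*, encoding a further receptor for this prostaglandin, was at 0.499 ± 0.0587 CPM with the cytokines and had ratios of 19.0, 5.83, 4.94 and 197.5 in the same order. *Ccl2*, which lies beside *Ccl7* in the chemokine cluster on chromosome 11, had ratios of 2.11 in set A, 0.847 in set B, 1.10 with Sal003 and 3.67 with tunicamycin. *Ccl8*, another chemokine, had ratios of 1.36, 3.10, 4.44 and 0.0679 in the same order. Its level was low, at 0.805 ± 0.264 CPM with the cytokines and 0.0546 CPM with tunicamycin. It also varied widely among mice, at 2.49 ± 1.59 CPM in set B and 3.57 ± 2.14 CPM with Sal003. *Bcl2l1* and *Mcl1*, which encode other survival proteins, ran opposite ways with oligomycin. *Bcl2l1* had ratios of 1.39 in set A, 1.38 in set B, 1.12 with Sal003 and 0.9285 with tunicamycin. *Mcl1* had ratios of 0.729, 0.956, 1.06 and 0.467 in the same order.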
